A study of Mus musculus with 4 samples.

Results

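Gene deserts, taken here as 1 Mb stretches of the mouse genome in which the array names no gene at any of its probes, were examined in 4 liver tumours on the 11 autosomes treated as copy-stable (chromosomes 1 to 5, 7, 10, 11, 14, 16 and 17). Fixed 1 Mb bins of the mm9 build with at least 20 probes were used, and a bin counted as a desert when every probe carried a position in place of a gene name. This gave 81 desert bins of 1501 bins (5.40%), holding 2324 probes, against 1420 other bins with 100358 probes. Within these chromosomes no measured ratio was used to choose the bins, whereas the chromosomes were taken as copy-stable with earlier results of these data known.

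The tumours came from separate male mice on a C57BL/6J background with a liver-specific loss of Trp53, the gene of the p53 tumour suppressor, and the mice were not treated. Tumour DNA, labelled Trp53-/- and carrying the red dye Cy5, was hybridised with reference DNA carrying the green dye Cy3 on Agilent arrays for comparative genomic hybridisation. The reference was spleen DNA pooled from 3 littermates, labelled Trp53-/- and male as well, although the labelling protocol calls it liver; what drives the deletion in liver is not given in the sources used here. Each tumour had 1 array, so values were compared with 0 and the spread among reference samples is not part of any error, and a log2 ratio above 0 means more tumour than reference DNA. The labels do not say whether all arrays took DNA from the same pool, so the tumours may share it.

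Gene deserts are long stretches without protein-coding genes, and in mammals they are typically rich in A and T, poor in open chromatin and copied late in S phase. Many lie beside large genes for neuronal adhesion or for developmental regulators. On hybridisation arrays, log2 ratios along normal chromosomes can drift in slow waves that follow base composition, and proliferating cells hold more copies of early than of late replicating DNA. Replication timing was not measured in this study, and no genome sequence of this build was used here, so base composition is known for the probes only.

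The probes below are examples from a desert bin and from a bin with named probes, and they do not measure how far such bins differ. The first 3 lie in the middle bin of the longest desert run and have the lowest, the median and the highest GC share of that bin; the fourth is the probe of median GC in a bin of chromosome 17 in which all 112 probes are named, and it is named for Park2, which encodes the ubiquitin ligase parkin. Letters are as the scanner files give them, with G and C in capitals, and all 4 probes are 60 bases long.
desert probe of lowest GC, chr14:112516531-112516590: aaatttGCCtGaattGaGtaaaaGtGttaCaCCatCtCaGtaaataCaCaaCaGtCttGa
desert probe of median GC, chr14:112418109-112418168: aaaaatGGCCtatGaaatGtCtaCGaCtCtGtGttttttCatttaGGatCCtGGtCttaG
desert probe of highest GC, chr14:112804247-112804306: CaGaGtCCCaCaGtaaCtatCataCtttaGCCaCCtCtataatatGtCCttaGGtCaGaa
Park2 probe, chr17:11601581-11601640: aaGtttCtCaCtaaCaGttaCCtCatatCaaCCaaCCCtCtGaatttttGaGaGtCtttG

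These desert probes contain 20, 22 and 24 G and C bases (33.3%, 36.7% and 40%), and the Park2 probe contains 22. In tumour 1 the desert probes read -0.46, -0.06 and 0.27 in that order, a rise with GC inside a single bin. The order was the same in tumour 2 (-0.23, 0.13 and 0.61) and in tumour 4 (-0.056, 0.11 and 0.29). In tumour 3 the same probes read 0.23, 0.14 and 0.23, with no such order. Their bin averaged -0.047, 0.010, 0.12 and 0.026 in tumours 1 to 4, the highest of its run in each tumour. Single probes are noisy, with an SD between neighbouring probes of 0.26, 0.32, 0.16 and 0.17 in tumours 1 to 4, and the Park2 probe read 0.24, 0.13, 0.12 and 0.17 while its bin averaged between -0.03 and 0.02. The array design held probe GC nearly constant: it averaged 36.56% over desert bins and 36.75% over other bins, and 44.1% of desert probes and 42.4% of other probes had 36.67%. Desert bins were more sparsely covered, with a median of 27 probes (22 to 86) against 73 (20 to 112) and a median spacing of 32.3 kb against 10.65 kb. All desert probes were well above background in both channels on every array.

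The word desert was checked against gene names. The 81 bins formed 63 runs of adjacent bins: 51 single bins, 8 runs of 2, 3 runs of 3 and 1 run of 5. The nearest named probes on either side of a run were 1.11 to 5.95 Mb apart (median 1.69 Mb). With the order of coding genes taken from RefSeq (GRCm38, used for names and order only), 45 of the 63 runs had no coding gene that the array leaves unnamed between the nearest neighbours that could be placed, 12 had 1 or 2, 4 had 3 to 9 and 2 had at least 10. Those last 2 are single bins on chromosome 7 and are not free of genes. The bin at 12 to 13 Mb lies between Nlrp4b and Zfp551 in a stretch of 18 coding genes, and the bin at 115 to 116 Mb lies between Ovch2 and Nlrp10 in a stretch of 42. The first read -0.089, -0.14, 0.080 and -0.031 in tumours 1 to 4 and the second -0.084, -0.099, 0.081 and -0.049, where all deserts averaged -0.094, -0.072, 0.073 and -0.049. Both were lower than that average in tumour 2. Without them the differences between desert and other bins, given next, were -0.089, -0.033, 0.067 and -0.025 in tumours 1 to 4. As RefSeq gave the order only, the coding genes of the other such runs may lie inside or outside the desert bins. With all runs with an unnamed coding gene left out, 55 desert bins remained. Their differences were -0.082, -0.023, 0.065 and -0.024.

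Desert bins read below the other bins in tumours 1, 2 and 4 and above them in tumour 3. In tumour 1 the desert bins ran from -0.24 to 0.07 with a median of -0.09. In tumour 2 they ran from -0.20 to 0.07 with a median of -0.07, and in tumour 4 from -0.15 to 0.03 with a median of -0.05. In tumour 3 they ran from -0.02 to 0.19 with a median of 0.07. There, 1 of the 81 was below 0, against 75, 71 and 70 in tumours 1, 2 and 4. The median of all bins of these chromosomes was itself -0.005, -0.034, 0.013 and -0.023 in tumours 1 to 4. In tumours 1, 2 and 4 most bins of any kind were thus below 0, and no share below 0 is given for the other bins. The ranges of desert and other bins overlapped in every tumour.

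**Figure D1:**
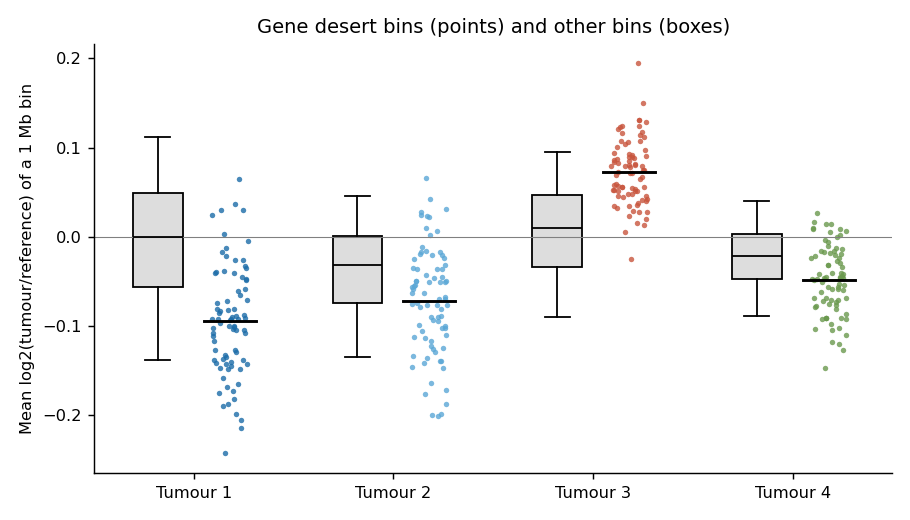
Mean log2(tumour/reference) of each 1 Mb bin (vertical axis) in tumours 1 to 4 (horizontal axis). Points are the 81 desert bins with their mean as a black bar; grey boxes are the 1420 other bins (median, quartiles, and whiskers from percentile 5 to percentile 95, bins beyond them not drawn). The desert means lie at -0.094, -0.072, 0.073 and -0.049, below the box medians in tumours 1, 2 and 4 and above in tumour 3.

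The mean over desert bins minus the mean over other bins was -0.089 ± 0.007, -0.034 ± 0.007, 0.067 ± 0.004 and -0.025 ± 0.004 (SE over bins) in tumours 1 to 4. As a change of the ratio this is -5.95%, -2.34%, 4.74% and -1.69%. The number of desert bins below the median of all bins was 74, 61, 3 and 58 of 81 in tumours 1 to 4, against 50% of all bins by construction. Bins of 1 tumour share an array and adjoin each other, so these errors describe the spread over bins and not that between tumours. Over the 4 tumours the difference was -0.020 ± 0.064 (SD, n = 4), and a two-sided exact sign-flip test gave p = 0.625 (0.625 after Benjamini-Hochberg adjustment over 7 tests), in a design that cannot go below 0.125. A common direction over the tumours was therefore not shown. The sign of the mean rests on tumour 1: without it, the difference of the other 3 was 0.0027. Its size depended on tumour 3 as well: without that tumour the mean difference was -0.049.

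The same directions held on nearly every chromosome. Deserts were lower than the other bins of their chromosome on 11 of 11 chromosomes in tumours 1 and 4 and on 10 of 11 in tumour 2, and higher on 11 of 11 in tumour 3. The exception was chromosome 1 in tumour 2, at 0.013. The size varied: in tumour 1 it went from -0.12 on chromosome 11 to -0.033 on chromosome 1, and in tumour 3 from 0.047 on chromosome 4 to 0.11 on chromosome 11. Chromosome 14 held 15 desert bins, 13.2% of its bins, and its difference was -0.11, -0.057, 0.063 and -0.034 in tumours 1 to 4. On the 8 autosomes outside the 11, 35 desert bins differed from 833 other bins, within their chromosome, by -0.087, -0.034, 0.069 and -0.036. The means of the 11 chromosomes lay between -0.053 and 0.032 in all tumours, which restates how they were chosen, and single other bins on them reached -0.81 in tumour 3.

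**Figure D2:**
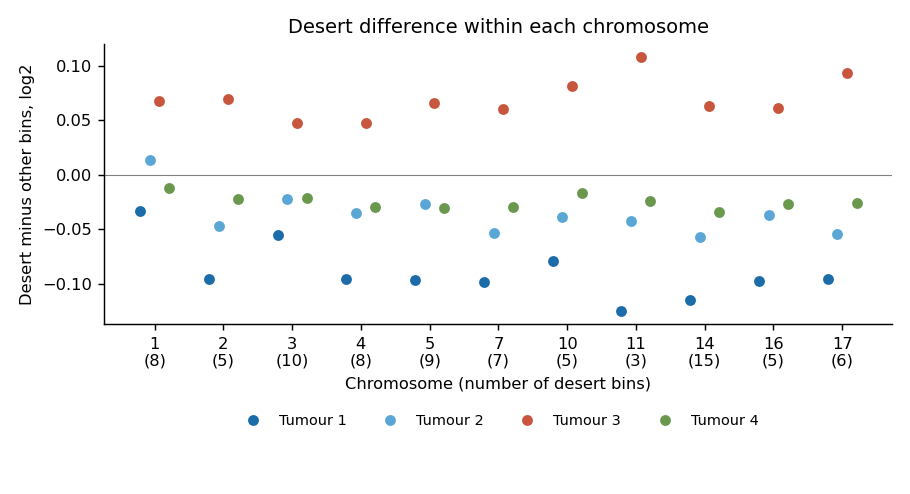
Mean log2(tumour/reference) of desert bins minus that of the other bins of the same chromosome (vertical axis) for the 11 chromosomes (horizontal axis, number of desert bins in brackets), with 1 point per tumour. Tumour 3 lies above 0 on 11 of 11 chromosomes and tumours 1 and 4 lie below 0 on 11 of 11.

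Probe GC was then taken into account in 3 ways, and each left a difference of nearly the same size. Probe GC averaged 36.56% over desert bins and 36.75% over other bins, so removing it could change the difference only little. These 3 ways therefore cannot show whether the difference depends on the base composition of the region. After a lowess fit of the ratio on probe GC was subtracted, the difference was -0.082, -0.031, 0.065 and -0.022 in tumours 1 to 4. Matching bins within 1 percentage point of their mean probe GC gave -0.077, -0.028, 0.060 and -0.022. Among probes with exactly 22 G and C bases of 60 (1025 in deserts and 42564 elsewhere), it was -0.092, -0.042, 0.071 and -0.024. Over the tumours the corrected mean was -0.017 ± 0.061 (SD, n = 4) and the matched mean -0.017 ± 0.057, each with an exact sign-flip p of 0.625 and an adjusted p of 0.625. Matching rested on the 70 desert bins at 36 to 37% GC. The 4 desert bins at 35 to 36% differed from their 23 GC-matched bins by 0.039, 0.048, 0.022 and 0.004 in tumours 1 to 4. In this class the deserts were thus not lower in any tumour. The 7 at 37 to 38% differed from their 281 by -0.14, -0.063, 0.096 and -0.046.

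Inside the deserts themselves, ratios rose with probe GC in tumours 1, 2 and 4. Per 10 percentage points of GC, the log2 ratio of desert probes had slopes of 0.35, 0.29, -0.042 and 0.15 in tumours 1 to 4. Probes of the other bins had slopes of 0.35, 0.24, -0.050 and 0.14. The desert slope averaged 0.18 ± 0.17 (SD, n = 4; exact sign-flip p = 0.25, adjusted p = 0.583), and its difference from the slope elsewhere 0.013 ± 0.020 (exact sign-flip p = 0.25, adjusted p = 0.583). The sign in tumour 3 depends on background correction: with normexp its desert slope was 0.14. In tumour 1, desert probes under 32% GC averaged -0.27 ± 0.04 (SE over 40 probes) and those at 39 to 41% averaged 0.035 ± 0.030 (58 probes), and probes of other bins went from -0.19 to 0.11 over the same classes. In that tumour the deserts lay lower in each class up to 41% and followed a like slope, while in tumours 2 and 4 the errors of the lowest and highest classes overlapped those of the other bins. For 4 desert probes above 41% GC the errors were too wide to tell.

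**Figure D3:**
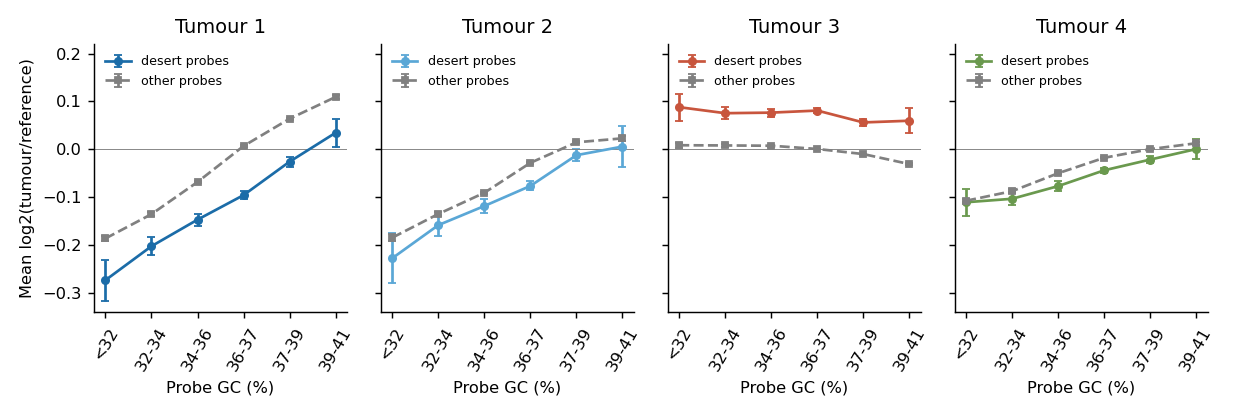
Mean log2(tumour/reference) of probes (vertical axis) in classes of probe GC in percent (horizontal axis), with 1 panel per tumour. Coloured points are desert probes, grey squares are probes of other bins, and bars are the SE over probes. The class above 41%, with 4 desert probes, is not drawn. In the classes drawn, desert points lie below the grey ones in tumours 1, 2 and 4 and above them in tumour 3, from 0.088 against 0.009 under 32% GC to 0.060 against -0.031 at 39 to 41%.

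The 2 dyes were also read apart, on the log2 scale of the processed signal. Desert and other bins hold different probes, so an offset within a channel is no measure of DNA, but the same probe sets can be followed over the 4 arrays. In the reference channel, desert minus other signal was 0.076, 0.062, 0.056 and 0.077 in tumours 1 to 4. In the tumour channel it was -0.013, 0.028, 0.12 and 0.053. The values of the tumour channel spanned a wider range than those of the reference channel, and tumour 3 had the highest of the former and the lowest of the latter.

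Ratios changed with how many probes of a bin carried a gene name. In tumour 1, bins without a named probe averaged -0.094, the 111 bins with up to 25% named -0.081, the 230 with 25 to 50% -0.037, the 584 with 50 to 75% 0.009 and the 495 above that 0.008. In tumour 3 the same classes averaged 0.073, 0.059, 0.029, -0.009 and 0.0003. They averaged -0.072, -0.074, -0.052, -0.032 and -0.030 in tumour 2, and -0.049, -0.048, -0.032, -0.023 and -0.017 in tumour 4. In tumours 2 and 4, deserts and bins with up to 25% named were nearly equal. Bins with few names were thus close to deserts, and the classes above 50% differed little from each other. A line fitted over all bins, per full change from 0 to all probes named, had a slope of 0.12, 0.057, -0.082 and 0.040 in tumours 1 to 4 (exact sign-flip p = 0.5, adjusted p = 0.625). At the edge of the definition, the 24 bins with a single named probe averaged -0.10, -0.085, 0.071 and -0.055, and the only desert with 20 to 22 probes read -0.0042, -0.067, -0.025 and -0.024.

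The shift also reached beyond the deserts. In tumour 1 the 119 bins next to a desert averaged -0.070, the 100 bins at 2 Mb -0.047, the 88 at 3 Mb -0.016 and the 696 beyond 10 Mb 0.017. In tumour 3 these averages were 0.053, 0.035, 0.020 and -0.010. The share of named probes was 60% next to a desert, 67.7% at 2 Mb, 65.0% at 3 Mb and 70.1% beyond 10 Mb; it was lower at 3 Mb than at 2 Mb, while the ratio of tumour 1 was higher at 3 Mb. Against only those other bins that lie over 3 Mb from a desert, the differences were -0.10, -0.038, 0.076 and -0.026. Tumours 2 and 4 showed no steady gradient past 3 Mb. Tumour 2 read -0.064 next to a desert, -0.030 at 3 Mb, -0.043 at 6 to 10 Mb and -0.031 beyond, and tumour 4 read -0.035, -0.016, -0.029 and -0.021.

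Single probes gave the same picture on a finer scale. In tumour 1 unnamed probes within 50 kb of a named probe averaged 0.025, those at 100 to 250 kb -0.047, those at 250 to 500 kb -0.070 and the 1599 probes at 500 to 1000 kb -0.11. The 544 probes beyond 1000 kb were no lower, at -0.11 ± 0.01 (SE over probes). In tumour 3 the averages were -0.016, 0.050, 0.066, 0.078 and 0.081. After GC correction the class at 500 to 1000 kb was at -0.10 in tumour 1 and 0.080 in tumour 3.

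**Figure D4:**
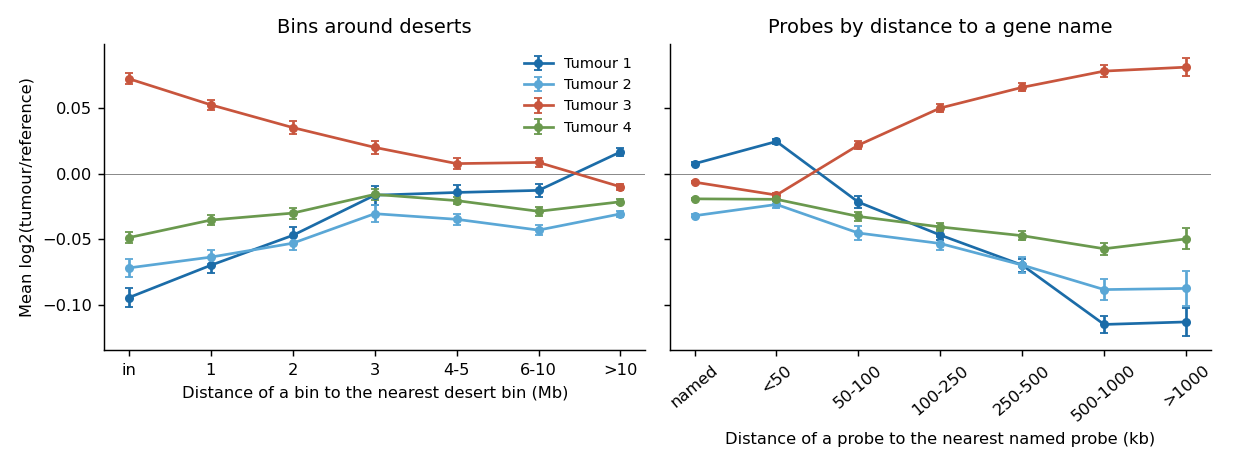
Mean log2(tumour/reference) (vertical axis) by distance of a 1 Mb bin to the nearest desert bin in Mb (left, with the deserts themselves marked in) and by distance of a probe to the nearest named probe in kb (right, with named probes at the left end). Each line is a tumour and bars are the SE over bins or probes; tumour 1 goes from -0.094 in deserts to 0.017 beyond 10 Mb and tumour 3 from 0.073 to -0.010.

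Named genes beside the deserts were compared with a list of genes for neuronal adhesion and synapses. Of 124 distinct names at the edges of the 63 runs, 11 (8.87%) were on that list, against 55 of 12980 names on these chromosomes (0.424%). None was on a list of developmental transcription factors (38 of all names, 0.293%). When clone names without a RefSeq match were passed over and the next placed gene was taken, 17 of 110 neighbours (15.5%) were on the first list and 3 (2.73%), Nr2f2, Zeb2 and Zfhx4, on the second. No share over all names that could be placed is given, so the 15.5% and 2.73% have no like background. Both lists were drawn up with earlier results of these data known, so the counts describe these runs only.

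The genes found include receptors and adhesion molecules of the nervous system. Cadm2, a cell adhesion molecule of synapses, borders a desert bin on chromosome 16 that read -0.19, -0.13, 0.084 and -0.079 in tumours 1 to 4. Epha7, an ephrin receptor, borders a bin on chromosome 4 at -0.14, -0.077, 0.056 and -0.047, and Epha5 a bin on chromosome 5 at -0.13, -0.063, 0.083 and -0.046. Luzp2 borders a run on chromosome 7 at -0.18, -0.19, 0.047 and -0.061. Each of these was below 0 in tumours 1, 2 and 4 and above 0 in tumour 3. Most deserts read so: 75, 71 and 70 of 81 were below 0 in tumours 1, 2 and 4, against 1 in tumour 3. The pattern is thus not particular to these neighbours. Grik2, a kainate receptor subunit, borders a run on chromosome 10 at -0.043, -0.015, 0.10 and 0.002. In each tumour that run read higher than the deserts beside Cadm2, Epha7, Epha5 and Luzp2. Pcdh9, a protocadherin, has deserts on both sides, at -0.11 and -0.10 in tumour 1 and 0.086 and 0.089 in tumour 3.

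The longest run, 5 bins on chromosome 14 from 110 to 115 Mb with 157 probes, read -0.16, -0.11, 0.073 and -0.064 in tumours 1 to 4. The array names on its sides are AK049627 and AK015882, and the nearest placed genes are Spry2, an inhibitor of receptor tyrosine kinase signalling, and Gpc5, a glypican. Between these 2 genes RefSeq also places Slitrk1, Slitrk5 and Slitrk6, which encode synaptic adhesion proteins, and Trim52. Its 5 bins differed among themselves, from -0.24 to -0.047 in tumour 1 and from 0.048 to 0.12 in tumour 3, and the bin with the highest value was the same in all 4 tumours. Of the 3-bin runs, 1 lay between Igfbp7 and Lphn3 on chromosome 5 (-0.093, -0.061, 0.058 and -0.085) and another between Olfm4 and AK133388 on chromosome 14 (-0.095, -0.066, 0.055 and -0.066).

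**Figure D5:**
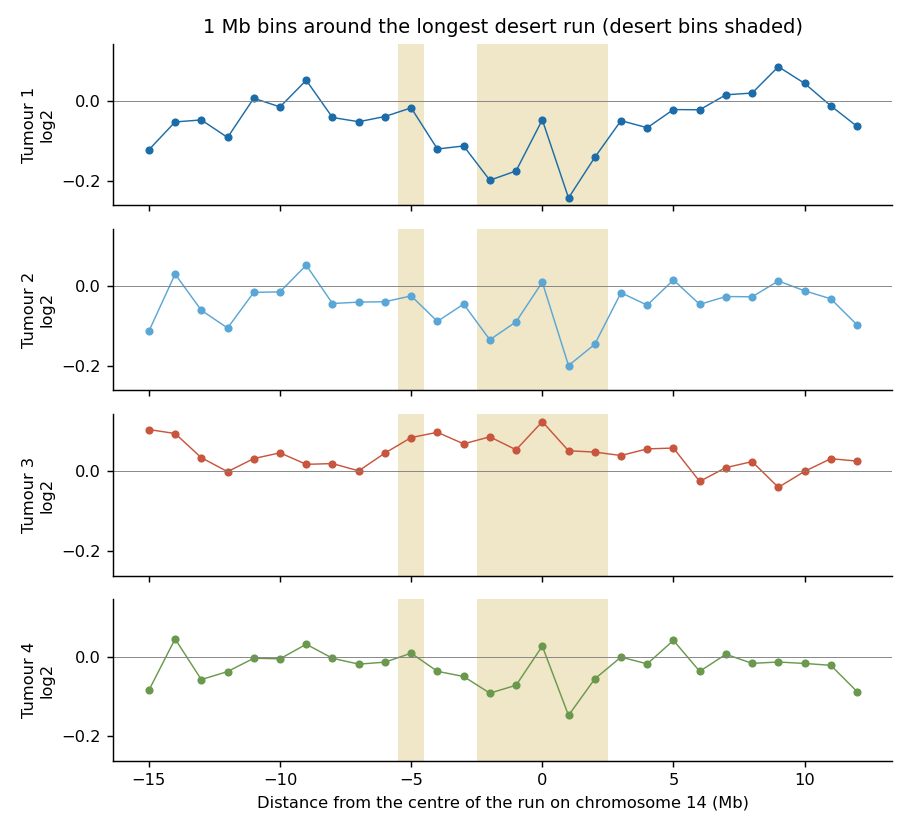
Mean log2(tumour/reference) of 1 Mb bins (vertical axis, 1 panel per tumour) by distance in Mb from the centre of the longest desert run (horizontal axis), with desert bins shaded. The 5 adjoining shaded bins in the middle hold the lowest desert bin of tumour 1, at -0.24, and all lie above 0 in tumour 3.

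The lowest desert bin by mean over tumours was part of that run, at 113 to 114 Mb. It read -0.24, -0.20, 0.052 and -0.15, a mean of -0.13 ± 0.13 (SD, n = 4). A stretch of 5 of its 26 probes, from 113836255 to 113999780 and chosen after its values were seen, read -0.55 ± 0.25 (SE over probes), -0.61 ± 0.32, -0.15 ± 0.19 and -0.53 ± 0.30, and the other 21 probes read -0.17, -0.10, 0.10 and -0.055. Its first 3 probes averaged -0.84, -1.01, -0.28 and -0.87, below 0 in all 4 tumours, the lowest average of 3 adjacent desert probes. The next lowest bins lay on chromosome 4 at 27 to 28 Mb, between AK016071 and AK157074 (-0.18, -0.16, 0.0053 and -0.10), and on chromosome 1 at 143 to 144 Mb, between AK016382 and Cdc73, which encodes a subunit of the Paf1 complex (-0.21, -0.20, 0.11 and -0.13).

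Among the 3 highest bins by mean over tumours, 2 were on chromosome 1, at 96 to 97 Mb between AK153979 and Fam174a (0.030, 0.043, 0.091 and 0.0025) and at 116 to 117 Mb between AK020392 and AK043174 (0.025, 0.066, 0.056 and -0.016). In tumour 3 the desert farthest from 0 lay on chromosome 10 at 35 to 36 Mb between Frk, a tyrosine kinase, and Hs3st5, a heparan sulphate sulphotransferase. It read 0.19 ± 0.04 (SE over 26 probes) there and -0.081, -0.049 and -0.0034 in tumours 1, 2 and 4.

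The deserts varied less among themselves than the other bins in tumours 1, 3 and 4. The SD over desert bins was 0.062, 0.060, 0.037 and 0.038 in tumours 1 to 4, and that over other bins 0.080, 0.060, 0.060 and 0.047. The log2 of their ratio averaged -0.34 ± 0.29 (n = 4; exact sign-flip p = 0.125, the smallest possible, adjusted p = 0.583). Probe noise alone would give desert bins an SD of 0.049, 0.059, 0.032 and 0.035, which is most of what was measured. When bins were summarised by the median of their probes, the log2 ratio shrank to -0.099 on average and turned to 0.24 in tumour 2. Neighbouring bins outside deserts (1333 pairs) correlated at 0.62, 0.26, 0.56 and 0.22, and at 0.60, 0.23, 0.55 and 0.21 after GC correction. For 18 pairs of neighbouring deserts the values were -0.15, -0.11, 0.39 and -0.28; the pairs share an array and few points support them.

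No single desert stood out from 0 across the tumours. With limma on all 2541 bins, 0 of 81 deserts passed a Benjamini-Hochberg adjusted p of 0.05, against 0.0394% of all bins called lower and 0% called higher, and the smallest adjusted p from limma among deserts was 0.418. The 2541 bins came from all chromosomes and the deserts only from those treated as copy-stable, so these limma shares are no like background. No limma share is given for the other bins of the copy-stable chromosomes alone. At an unadjusted p under 0.05 there were 2 deserts (2.47%), both lower, against 11.6% of all bins in either direction and 8.5% lower. Without tumour 3 there were 46 (56.8%), all lower, against 20.7% of all bins in either direction. Without tumour 1, 2 or 4 there were 0 deserts, against 6.45%, 1.73% and 12.8% of all bins. None passed the adjusted threshold in those fits. By level, 3 deserts of tumour 1 and 1 of tumour 2 lay below -0.2, against 0.866% and 0.6% of the 1501 copy-stable bins. None did in tumours 3 and 4, against 0.0666% and 0.133%. No desert lay above 0.2 in any tumour, against 0.333% of these 1501 bins in tumour 1 and 0% in the others.

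Tumours 1 and 4 shared a slide and differed in size but not in direction (-0.089 and -0.025), and tumours 2 and 3 had a slide each. With the first pair averaged, the mean difference was -0.0080. Every slide held tumours only, so the difference between tumour 3 and the rest cannot be told apart from that of its slide. Tumour 3 also had the largest dye scaling factor for the reference channel (6.27, against 1.47, 2.96 and 1.75 in tumours 1, 2 and 4) and the only correlation with probe GC below 0 over all autosomes (-0.049, against 0.218, 0.131 and 0.130). The part of these measures, and of replication timing or regional base composition, in the desert differences was not tested.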

How the data were processed

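Genomic DNA of 4 tumours was measured on 4 arrays, all forming 1 group. The deposited log10 ratio of a spot is red over green; per the file headers its background was subtracted, it was detrended over the slide and its dyes were scaled linearly, the lowess dye term being 0. The submitters' processing notes list Agilent Feature Extraction 10.7.3.1. Deposited beside the ratios are intensity columns for both channels (raw, background and processed), per the file headers. Ratios were turned to log2, control and outlier spots (93 to 126 per array) were left out, repeated probes averaged, and each array centred on its autosomal median. The number of arrays limits the precision.

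GC was removed by lowess (span 0.7, statsmodels 0.14.6) per array. Differences were tested over tumours with two-sided exact sign-flip tests, adjusted over 7 tests, and single bins with limma 3.58.1 in R 4.3.3 (moderated intercept, bins of at least 5 probes). Both were tested on simulated data. The members and gene lists were chosen with earlier results of these data known. Bins were named by rule: the 3 lowest and 3 highest by mean, the 4 longest runs, and per tumour the one farthest from 0, each with its flanking names; other genes named are list members at the edges. A run and a bin that this rule picked are not reported here. Of the 124 flanking names, 58 matched RefSeq. Alternatives covered background correction, centring, bin size, the naming and probe thresholds, chromosome matching and each tumour left out. Added after seeing the data were probes of equal GC, lowess on signal, deserts without unnamed coding genes, other bins over 3 Mb away and, for limma only, slides averaged.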

Additional observations from a re-analysis of the deposited data

How the results depend on the processing

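The sign of the desert difference in each tumour was the same in all 15 alternatives run without a GC correction and in all 12 run with each form of it. Some of these could hardly change it. Centring on the mode moves all bins of an array alike, and the values of the series match the scanner ratios. Keeping only probes well above background removed no desert probe. Uncorrected, it ranged from -0.13 to -0.082 in tumour 1, -0.076 to -0.023 in tumour 2, 0.065 to 0.098 in tumour 3 and -0.038 to -0.024 in tumour 4. The mean over tumours turned above 0 when tumour 1 was left out: over the fits that leave out a tumour it ran from -0.049 to 0.0027 uncorrected, -0.045 to 0.0041 after GC correction and -0.042 to 0.0033 after matching. With normexp background correction the desert GC slope of tumour 3 was 0.14. The spread of deserts against other bins in tumour 2 turned above 0 with normexp (0.014), with probes well above background only (0.067) and with bin medians (0.24); the cause was not tested. Bins of 0.5 Mb left 15 deserts, bins of 2 Mb 10, and up to 5% named probes 108. A minimum of 50 probes left 1 desert and gave no value, and the slide as a random block could not be fitted. No paired analysis was possible because all samples form 1 group. Array noise limits single bins, and no genome of this build was used for regional base composition.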
